A study of Drosophila melanogaster with 18 samples.

Results

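ImpL3, now named Ldh, is the lactate dehydrogenase gene of Drosophila melanogaster. It was taken as the single row with that gene name, 1 of 15602 genes in the table, and followed through 18 RNA-seq libraries of wing imaginal discs, folded sheets of larval epithelium from which the adult wings develop. All discs came from wild-type OregonR larvae 96 h after egg laying. One group was frozen uncultured. The other 5 groups were kept at 25 °C in Grace's insect medium, to which 5% fetal bovine serum was added: 4 h without hormone, 4 h or 9 h with 20 nM 20-hydroxyecdysone (20E, the insect steroid hormone), and 4 h or 9 h with 5 µg/ml bovine insulin. Each group held 3 libraries. The 20E came in ethanol and the insulin in acidified water. The labels name no carrier for the group without hormone, and no group was cultured for 9 h without hormone, so that culture time and hormone cannot be told apart in a comparison of 9 h with uncultured discs. Nothing in the labels says that replicates came from separate cultures, so p-values measure the spread between these libraries, which may be technical.

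Lactate dehydrogenase reduces pyruvate, the end product of glycolysis, to lactate and in doing so turns NADH back into NAD+, which glycolysis needs to go on. In Drosophila larvae the enzyme is also known to make L-2-hydroxyglutarate, and larval growth is known for a high glycolytic flux set up by the nuclear receptor ERR. The name ImpL3 goes back to a screen for RNAs of imaginal discs that respond to ecdysone, which also gave ImpL1, ImpL2 and the ImpE genes.

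ImpL3 was chosen by its measured FPKM: its difference between insulin and no hormone at 4 h was the largest rise among tested genes. Its values in any comparison that uses one of these groups are therefore a description, with no test. The 5 comparisons that use neither group were tested.

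In the Ensembl annotation of BDGP6.54 the gene (FBgn0001258) lies on the minus strand of chromosome 3L, from 6259105 to 6262694. Its 4 transcripts measure 1324 to 1778 nt, start at 3 alternative first exons and share 1 coding sequence of 999 nt, stop codon included, on 3 coding exons. The table gives 1 value per gene, so the first exons could not be told apart. The annotation shows 0 genes that overlap it. CG10163, 344 nt from it on the same strand, stood at 0.127 FPKM or less in every group mean. Best2, 2439 nt away on the same strand, had group means between 14.9 and 20.5 FPKM. Neither of these neighbours held values near those of ImpL3 in insulin. A closer gene, lncRNA:CR44522, lies 313 nt away on the same strand and has no values in these data.

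FPKM is a count of fragments divided by transcript length in kilobases and by library size. The deposited table holds no counts, and depth was estimated from the steps of low values at 28.2 to 38.1 M fragments per library. At that depth ImpL3 corresponds to about 370 fragments in the library where it was lowest and about 16302 where it was highest. The libraries correlated at 0.945 to 0.985 (r over the tested genes on the log2(FPKM + 1) scale) within groups and at 0.897 to 0.978 between groups. All 6 wing disc markers checked were present, with a summed level of 346 to 472 FPKM. The fat body list did not pass 1.06 FPKM in sum. Of 7 haemocyte markers only 1, crq, reached 1 FPKM, and the 7 summed to 20.0 to 26.3 FPKM over the libraries. Gut genes stood out in single libraries, with sums of 11264 FPKM in uncultured replicate 2 and 788 FPKM in no hormone replicate 1.

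In fresh discs ImpL3 was a gene of modest level. It stood at 11.4, 10.2 and 12.5 FPKM in uncultured replicates 1 to 3, a mean of 11.4 ± 1.15 (SD, n = 3). In the medium without hormone it stood at 11.6, 11.2 and 11.3 FPKM, a mean of 11.4 ± 0.200 (SD, n = 3). The 2 groups overlapped, and in these 6 libraries the gene ranked between 5642nd and 6101st from the top.

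With 20E for 4 h the libraries stood at 16.7, 22.7 and 27.4 FPKM, a mean of 22.3 ± 5.35 (SD, n = 3). With 20E for 9 h they stood at 26.4, 27.5 and 27.6 FPKM, a mean of 27.1 ± 0.656 (SD, n = 3). All 6 lay above every fresh and every no-hormone library. Against fresh discs, ranges were apart in 70.6% (4 h) and 73.7% (9 h) of tested genes. Between 20E at 4 h and no hormone they were apart in 43%. The libraries of 9 h lay close together and inside or just above the upper part of the range at 4 h.

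With insulin for 4 h the level was 500.5, 195.5 and 394.8 FPKM, a mean of 363.6 ± 155 (SD, n = 3), and the gene ranked 162nd, 462nd and 208th. With insulin for 9 h it was 112.3, 55.2 and 153.9 FPKM, a mean of 107.1 ± 49.5 (SD, n = 3), with ranks between 571st and 1870th. The highest library at 9 h stayed below the lowest at 4 h, and the lowest at 9 h was above the highest library with 20E.

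**Figure D1:**
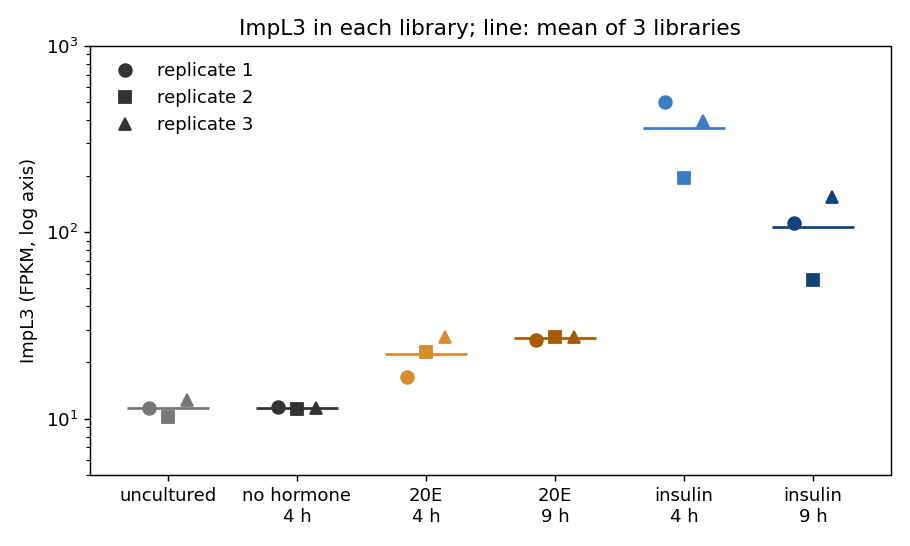
ImpL3 in each of the 18 libraries, in FPKM on a log axis, by group; symbols mark the replicate and the line is the mean of 3 libraries. Fresh and no-hormone libraries lie between 10.2 and 12.5 FPKM, 20E libraries between 16.7 and 27.6, and insulin libraries between 55.2 and 500.5.

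The groups therefore fall in the order no hormone, uncultured, 20E at 4 h, 20E at 9 h, insulin at 9 h and insulin at 4 h. No hormone and uncultured overlapped, as did both 20E groups. The other neighbours in this order did not overlap. By ratios of mean FPKM, 20E at 4 h stood 1.96-fold above uncultured. Insulin at 9 h stood 3.95-fold above 20E at 9 h, and insulin at 4 h stood 3.39-fold above insulin at 9 h. Ranges were apart in 70.6%, 58% and 54.6% of tested genes in these comparisons. In bulk discs, a change in the number of cells that use the gene and a change in RNA per cell cannot be told apart.

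Both 20E groups and the later insulin group were tested against fresh discs with limma on log2(FPKM + 1), adjusted by Benjamini-Hochberg over 8524 genes. ImpL3 rose by 1.19 ± 0.33 on the log2 scale with 20E at 9 h (± SE, adjusted p = 0.00511), where 71.3% of genes were called in either direction. In insulin at 9 h it rose by 3.01 ± 0.33 (adjusted p = 1.49e-06), where 67.6% of genes were called. This SE is shared over all groups, while the SD of log2(FPKM + 1) was 0.75 in insulin at 9 h. Apart from leaving out single libraries, the 8 alternative settings all kept this call, with limma adjusted p up to 0.000779. All 3 libraries of 20E at 9 h and of insulin at 9 h were above all fresh libraries. Ranges were apart in 73.7% and 71.4% of tested genes in these comparisons. The change with insulin was the 20th largest rise of the tested genes and that with 20E at 9 h the 260th.

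With 20E at 4 h, ImpL3 was higher by 0.89 ± 0.33 (adjusted p = 0.0288), against 67.3% of genes called. That call was not kept by every setting. Quantile normalization gave an adjusted p of 0.0518. Leaving out 20E replicate 2 gave 0.0651, leaving out 20E replicate 3 gave 0.105, and leaving out uncultured replicate 1 or 2 gave 0.0583 and 0.0766. The standard error is shared by all groups for this gene, and 88.5% of its squared deviations from the group means lay in the 6 insulin libraries.

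Between the hormones at 9 h, ImpL3 was lower with 20E than with insulin by 1.82 ± 0.33 on the log2 scale (adjusted p = 0.00035), where 53% of genes were called. Apart from leaving out single libraries, the 8 alternative settings kept this call, with limma adjusted p up to 0.00713. Every 20E library was below every insulin library, and ranges were apart in 58% of tested genes. Between 4 h and 9 h of 20E the difference was 0.30 ± 0.33 (adjusted p = 0.557, 95% interval -0.41 to 1.02), and 22.9% of genes were called. That interval still holds a 2-fold rise, which is 1 on the log2 scale.

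Markers of other tissues that can adhere to discs moved with the culture groups. The summed level of 5 tracheal markers was 704 to 775 FPKM in fresh discs, 758 to 847 without hormone, 393 to 463 over both 20E groups, 564 to 596 with insulin at 4 h and 838 to 1062 with insulin at 9 h. The 6 libraries with 20E were thus the lowest of the 18 in this sum. Against fresh discs 3 of these 5 (serp, verm and Gasp) were lower and 2 higher at either time of 20E. Over all genes 33.1% and 34.4% were lower and 34.2% and 36.9% higher. The markers that were higher were trh, by 0.21 ± 0.06 at 4 h and 0.37 ± 0.06 at 9 h, and btl, by 0.31 ± 0.10 and 0.60 ± 0.10. Of 7 larval muscle markers, 5 were lower with 20E at 4 h and 6 at 9 h (medians -0.95 and -1.28). The other marker at 9 h, Mlc2, was higher by 0.86 ± 0.23 (adjusted p = 0.0032). With insulin at 9 h Mlc1, up and Tm2 were also lower than in fresh discs. Mlc2 was higher there by 1.04 ± 0.23 (adjusted p = 0.000895). Without hormone Act57B and up were lower (adjusted p = 0.0229 and 0.00833). The summed level of the 7 markers lay between 16.9 and 64.0 FPKM over all libraries. The part of either tissue in the level of ImpL3 was not tested.

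In the comparisons that use the group without hormone or the earlier insulin group, ImpL3 is described only. Uncultured and no-hormone discs had means 0.0038 apart on the log2(FPKM + 1) scale. The mean with 20E at 4 h was 0.88 above no hormone. Insulin at 4 h was 4.78 above no hormone, which is 32.0-fold in mean FPKM, and was 3.89 above 20E at 4 h, or 16.3-fold. From 4 h to 9 h of insulin the mean fell by 1.77.

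The replicates were far less alike in insulin than elsewhere. The SD of log2(FPKM + 1) was 0.70 at 4 h and 0.75 at 9 h of insulin, against 0.34 at 4 h of 20E and 0.02 to 0.13 in the remaining groups. Over the 6870 genes with a mean of at least 5 FPKM in their highest group, the median SD per group was between 0.06 and 0.08, and ImpL3 had the 92nd largest SD at 4 h of insulin and the 39th largest at 9 h. Replicate 2 was the lowest library at both times, 0.79 and 0.82 below its group mean. Deviations of same-numbered libraries in different groups had a median r of -0.0008 over 45 pairs, with r from -0.45 to 0.31.

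Gut marker genes were highest in replicate 2, where ImpL3 was lowest, at both times of insulin. At 4 h their summed level was 1.95, 228 and 139 FPKM in replicates 1, 2 and 3, the reverse of the order of ImpL3. At 9 h only replicate 2 stood apart, with 39.8 FPKM against 2.39 and 3.85 FPKM in replicates 1 and 3, and the order of those last libraries was not the reverse of that of ImpL3. The part of gut tissue in the spread of ImpL3 was not tested. In uncultured replicate 2, where the gut sum was 11264 FPKM, ImpL3 stood at 10.2 FPKM. That was the lowest fresh library, against 11.4 and 12.5 FPKM in replicates 1 and 3.

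Replicate 2 was the lowest insulin library for other genes too. All 10 tested genes of glycolytic enzymes were lowest in replicate 2 at 4 h, and 8 of 10 at 9 h, where 33.1% and 39.1% of all tested genes were lowest in that library. Their spread was smaller: the highest library exceeded the lowest by a median of 1.55-fold over these genes at 4 h and 1.21-fold at 9 h. The 5 genes most like ImpL3 in their deviations from group means over the 18 libraries were Men (r = 0.85), CG1882 (0.83), CG17294 (0.83), Tret1-1 (0.82) and lama (0.81). Men encodes malic enzyme, which makes NADPH, and stood at 60.3, 39.0 and 47.0 FPKM in insulin at 4 h. Tret1-1, a trehalose transporter gene, stood at 13.8, 5.17 and 9.85 FPKM there. These r values rest mostly on the 6 insulin libraries, were used to choose the 5 genes and are given as a description.

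**Figure D2:**
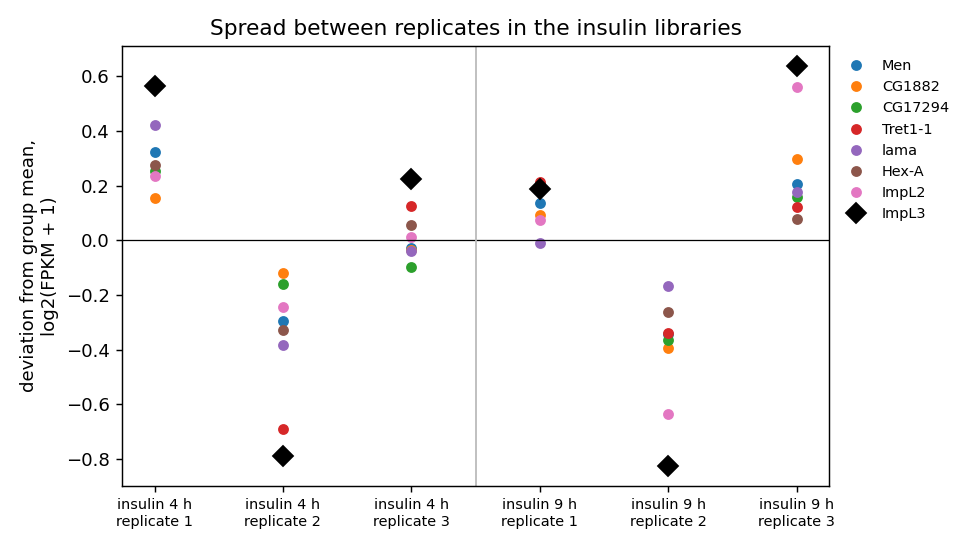
Deviation of each insulin library from its group mean on the log2(FPKM + 1) scale, for ImpL3 (black diamonds), the 5 genes most like it within groups, and Hex-A and ImpL2 for reference. ImpL3 lies 0.79 and 0.82 below the group mean in replicate 2. The other 7 genes also lie below theirs there, which for the 5 most alike follows largely from how they were chosen.

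Glycolytic enzyme genes, whose product pyruvate is the substrate of lactate dehydrogenase, did not follow ImpL3 in 20E. Against fresh discs, 10 of 10 tested members were lower with 20E at 4 h (median log2 change -1.16, with 33.1% of all genes lower), and 9 of 10 at 9 h (median -0.77, with 34.4% lower). The median over all tested genes lay between -0.01 and 0.02 in every comparison made. Medium without hormone gave 3 of 10 lower than fresh discs (median -0.10, with 35.5% of genes lower), and 20E at 4 h gave 9 of 10 lower than medium without hormone (median -0.93, with 15% of genes lower). Gapdh2, for glyceraldehyde-3-phosphate dehydrogenase, fell by 1.16 ± 0.14 at 4 h and fell by 1.18 ± 0.14 at 9 h against fresh discs (adjusted p = 4.88e-06 and 3.37e-06), and fell by 1.06 ± 0.14 at 4 h against no hormone (adjusted p = 6.36e-05). Hex-A, the hexokinase gene, fell by 1.36 ± 0.14 at 4 h (adjusted p = 6.21e-07) and fell by 1.31 ± 0.14 at 9 h (adjusted p = 7.42e-07) against fresh discs, but it also fell by 1.32 ± 0.14 in medium without hormone (adjusted p = 6.79e-07). It stood at 27.4, 24.5 and 21.1 FPKM there and at 23.2, 23.1 and 24.2 FPKM with 20E at 4 h, so that these groups overlapped. Pfk, for phosphofructokinase, was lower at 4 h by 0.65 ± 0.22 (adjusted p = 0.0161), a call lost without 20E replicate 2 (adjusted p = 0.0863), and at 9 h its change was -0.35 ± 0.22 (adjusted p = 0.167).

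With insulin at 9 h against fresh discs, 5 of 10 glycolytic genes were higher and 1 was lower (median 0.34, with 34.4% of genes higher and 33.2% lower). Leaving out insulin replicate 3 left 3 higher, quantile normalization gave 8 higher and 0 lower, and leaving out uncultured replicate 1 or insulin replicate 2 left 0 lower. Ald, the aldolase gene, rose by 1.28 ± 0.17 (adjusted p = 1.17e-05), and Gapdh2 rose by 0.66 ± 0.14 (adjusted p = 0.000911). In the comparison where ImpL3 was picked out, insulin against no hormone at 4 h, 10 of 10 were higher (median 1.14, with 30.3% of genes higher). Between the hormones at 9 h, 10 of 10 were lower with 20E (median -1.15, with 26.4% of genes lower).

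FPKM is scaled by length, so the level of ImpL3 can be set beside those of the glycolytic genes in the same library. In fresh discs it was below all 10 and at 4.28% to 5.51% of their median. Without hormone it was at 5.43% to 6.58%, with 20E at 12.3% to 24.6% at 4 h and 18.9% to 20.6% at 9 h. In insulin it was at 63.8% to 108% of the median at 4 h, above 4 to 6 of the 10, and at 20.3% to 51.3% at 9 h. Each rise of this share from fresh discs to 20E combines a higher ImpL3 with lower glycolytic genes.

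**Figure D3:**
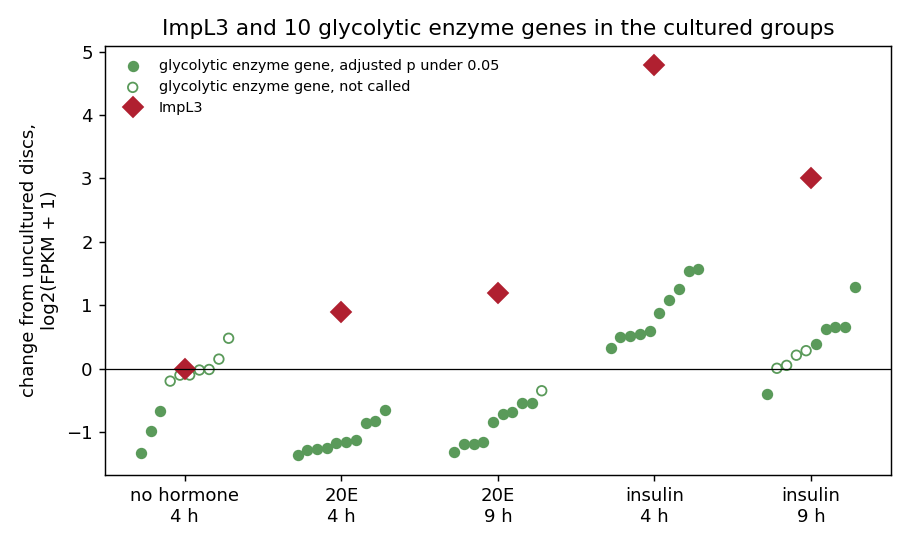
Change from uncultured discs on the log2(FPKM + 1) scale in the 5 cultured groups, for ImpL3 (red diamonds) and 10 glycolytic enzyme genes (green, filled where the limma adjusted p was under 0.05). In both 20E groups ImpL3 lies above 0 and all 10 enzyme genes below it; with insulin at 4 h all lie above 0 and ImpL3 is the highest.

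Of the genes that bring sugar to glycolysis, some were higher and some lower in 20E. Glut1, a glucose transporter gene, rose by 0.68 ± 0.21 at 4 h and by 1.22 ± 0.21 at 9 h of 20E (adjusted p = 0.00961 and 8.78e-05 against fresh discs), while without hormone it fell by 0.77 ± 0.21 (adjusted p = 0.00395). Treh, for trehalase, which cleaves the blood sugar trehalose, fell by 1.38 ± 0.13 at 4 h and fell by 1.54 ± 0.13 at 9 h (adjusted p = 1.94e-07 and 4.83e-08), and it fell by 1.60 ± 0.13 without hormone as well (adjusted p = 2.95e-08). In all, 1 of 5 tested members was higher and 3 were lower at either time of 20E (medians -0.99 and -1.05), with 34.2% and 36.9% of all genes higher and 33.1% and 34.4% lower. After 9 h of insulin, 2 were higher and 2 lower (median -0.33), near the 34.4% and 33.2% over all genes. GlyP, glycogen phosphorylase, was among the higher ones with a rise of 1.51 ± 0.19 (adjusted p = 6.7e-06), and it rose by 0.90 ± 0.19 without hormone (adjusted p = 0.000699).

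Pyruvate that is not reduced to lactate can enter the mitochondria. The 9 genes listed for this step include Pdk, which acts against pyruvate dehydrogenase, and pyruvate carboxylase. A count of lower genes is therefore no measure of lower entry. Of the 9, 7 were lower and 2 higher with 20E at 4 h (median -0.41). At 9 h of 20E 7 were lower and 1 higher (median -0.62), and insulin at 9 h gave 6 lower and 2 higher (median -0.52). The shares of all genes that were lower in these groups were 33.1%, 34.4% and 33.2%. Without hormone 6 were also lower than in fresh discs and 2 higher (median -0.43, with 35.5% of genes lower). CG1516, now PCB, encodes pyruvate carboxylase and stood at 43.9, 58.3 and 55.5 FPKM in fresh discs and 7.47, 9.09 and 7.87 FPKM with 20E at 4 h, where it fell by 2.54 ± 0.11 (adjusted p = 1.4e-10). Without hormone it stood at 10.0 to 11.7 FPKM, where it fell by 2.16 ± 0.11 (adjusted p = 2.67e-10), and from there to 20E at 4 h it fell by 0.38 ± 0.11 (adjusted p = 0.0153), a call lost without no hormone replicate 2 or 20E replicate 1 or 3 (adjusted p = 0.0627, 0.0564 and 0.0514). In insulin at 9 h it fell by 0.67 ± 0.11 (adjusted p = 7.6e-05). Pdk, the kinase that switches off pyruvate dehydrogenase, fell by 0.83 ± 0.14 with 20E at 9 h (adjusted p = 0.000104) and fell by 1.56 ± 0.14 with insulin at 9 h (adjusted p = 2.21e-07). It fell by 1.58 ± 0.14 without hormone too (adjusted p = 1.36e-07), and against no hormone it rose by 1.01 ± 0.14 with 20E at 4 h (adjusted p = 0.0001).

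Of 15 tricarboxylic acid cycle genes, 13 were lower with 20E at 4 h (median -0.46), 14 with 20E at 9 h (median -0.55) and 12 with insulin at 9 h (median -0.44), where 1 was higher. Over all genes 33.1%, 34.4% and 33.2% were lower. Without hormone 13 of 15 were lower than in fresh discs as well (median -0.45, with 35.5% of genes lower), and against no hormone 20E at 4 h gave 2 higher and 2 lower (median -0.06, with 15.7% of genes higher and 15% lower). In that last comparison array weights gave 4 higher, and 1 was lower with only the groups compared or without 20E replicate 2. The gene that was higher with insulin at 9 h was not called without uncultured replicate 2 or 3 or insulin replicate 2 or 3, and quantile normalization left 8 lower in the insulin comparison. The list moved most in kdn, for citrate synthase, which fell by 1.59 ± 0.09, fell by 1.65 ± 0.09 and fell by 1.35 ± 0.09 in these groups (adjusted p = 2.13e-09, 1.01e-09 and 1.28e-08). Without hormone kdn fell by 2.29 ± 0.09 (adjusted p = 4.01e-11), and from there it rose by 0.70 ± 0.09 with 20E at 4 h (adjusted p = 6.12e-05). Every cultured group named here thus had most of these genes lower than in fresh discs, the group without hormone included, where ImpL3 was at the fresh level.

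Shuttles that carry the electrons of cytosolic NADH into mitochondria are another route back to NAD+. Of 6 shuttle genes, 6 were lower with 20E at 4 h (median -0.35) and 5 at 9 h (median -0.43), with 33.1% and 34.4% of all genes lower, and quantile normalization left 3 lower at 4 h. Without hormone 3 were lower than in fresh discs (median -0.27, with 35.5% of genes lower). Insulin at 9 h gave 2 higher and 1 lower (median 0.13), no more than the 34.4% and 33.2% over all genes, and 1 higher without insulin replicate 3 or uncultured replicate 3. Gpo-1, the mitochondrial glycerol-3-phosphate oxidase gene, fell by 1.06 ± 0.12 with 20E at 4 h (adjusted p = 1.4e-06) and fell by 1.32 ± 0.12 at 9 h (adjusted p = 1.11e-07). Without hormone it fell by 0.57 ± 0.12 (adjusted p = 0.00051), and from there it fell by 0.49 ± 0.12 with 20E at 4 h (adjusted p = 0.00523).

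Of 7 pentose phosphate pathway genes, 6 were lower and 1 higher with 20E at 4 h (median -0.43), and 5 were lower at 9 h (median -0.56), with 33.1% and 34.4% of all genes lower. Without hormone 5 were lower too (median -0.41, with 35.5% of genes lower). The single member that was higher with 20E at 4 h was not called without uncultured replicate 2 or 3 or without 20E replicate 1 or 3. Tal, now Taldo, encodes transaldolase and fell by 1.03 ± 0.06 with 20E at 9 h (adjusted p = 1.22e-09), and it fell by 0.70 ± 0.06 without hormone (adjusted p = 7.46e-08). Insulin at 9 h gave 2 higher and 2 lower (median -0.13), near the 34.4% and 33.2% over all genes.

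Among genes listed for enzymes of related hydroxyacids, CG13334, which encodes a lactate dehydrogenase-like protein, stayed under the level for testing. CG3835, now D2hgdh, encodes an enzyme that oxidises D-2-hydroxyglutarate. It rose by 1.25 ± 0.12 with insulin at 9 h (adjusted p = 3.22e-07), and its changes of 0.18 ± 0.12 and -0.09 ± 0.12 with 20E at 4 h and 9 h did not pass (adjusted p = 0.19 and 0.511). It rose by 1.55 ± 0.12 without hormone as well, to 40.9, 58.6 and 45.4 FPKM (adjusted p = 2.04e-08). Against no hormone it fell by 0.85 ± 0.12 with insulin at 4 h (adjusted p = 2.35e-05) and fell by 1.37 ± 0.12 with 20E at 4 h (adjusted p = 7.82e-07).

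Of 7 genes in the monocarboxylate transporter family, whose members can carry lactate and pyruvate, 5 were tested. Against fresh discs, 4 of them were higher in insulin at 9 h (median 0.28, with 34.4% of genes higher). With 20E at 4 h 1 was higher (median 0.16), a count of 3 with array weights and 2 under quantile normalization, with the replicate block, or without 20E replicate 1 or 2. With 20E at 9 h 2 were higher and 1 was lower (median 0.18), and none was lower without uncultured replicate 3 or 20E replicate 3. With 34.2% and 36.9% of all genes higher, neither 20E count stood far from the share over all genes. The gene out rose by 0.67 ± 0.13 with insulin at 9 h (adjusted p = 0.000303). CG3409, now chk, rose by 0.54 ± 0.12 with 20E at 9 h and by 0.53 ± 0.12 with insulin at 9 h (adjusted p = 0.00084 and 0.00106).

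The regulators known for glycolytic genes were called about as often as genes in general. Of 9 tested, 3 were higher and 3 lower with 20E at 4 h (median 0.02), 4 higher and 2 lower with 20E at 9 h (median 0.03), and 3 and 3 with insulin at 9 h (median 0.06). Over all genes 34.2%, 36.9% and 34.4% were higher and 33.1%, 34.4% and 33.2% lower. ERR, known to switch on the larval glycolytic genes and Ldh itself, had group means of 14.3 to 18.1 FPKM over the 6 groups, and rose by 0.22 ± 0.05 with 20E at 9 h (adjusted p = 0.00197). crc, the fly ATF4 factor, rose by 0.92 ± 0.04, by 1.24 ± 0.04 and by 1.22 ± 0.04 with 20E at 4 h, 20E at 9 h and insulin at 9 h (adjusted p = 3.3e-10, 1.52e-11 and 3.74e-11). It rose by 0.91 ± 0.04 without hormone as well (adjusted p = 1.79e-10), where it stood at 754, 796 and 843 FPKM, a range that holds the 780, 802 and 821 FPKM with 20E at 4 h. dm, the Myc gene, rose by 0.68 ± 0.08 with 20E at 9 h (adjusted p = 3.91e-06), and changed by 0.07 ± 0.08 with insulin at 9 h (adjusted p = 0.465), while without hormone it fell by 0.40 ± 0.08 (adjusted p = 0.00059). EcR, the ecdysone receptor gene, fell by 0.50 ± 0.06 with 20E at 4 h and rose by 0.59 ± 0.06 with insulin at 9 h (adjusted p = 1.84e-06 and 3.14e-07), and it rose by 0.48 ± 0.06 without hormone (adjusted p = 1.98e-06).

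Low oxygen is known to raise Ldh through the factor Sima, and 5 tested genes known to respond to low oxygen were set beside it. All 5 were higher with insulin at 9 h (median 0.89), with 20E at 9 h 4 (median 0.43) and with 20E at 4 h 3 (median 0.34), where 34.4%, 36.9% and 34.2% of all genes were higher. Without uncultured replicate 1 or without 20E replicate 2 the count at 9 h of 20E was 2. Without hormone, where ImpL3 was at the level of fresh discs, 4 of 5 were higher (median 1.36, with 35.1% of genes higher). The part of low oxygen in the level of ImpL3 was not tested. The gene btl, called higher in each of these comparisons, is also 1 of the 5 tracheal markers above. Drat stood at 62.1, 59.6 and 62.5 FPKM in fresh discs and 287, 239 and 244 FPKM without hormone, above its levels with insulin at 4 h of 128, 101 and 94.2 FPKM.

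The genes that share the Imp name differed widely. With 20E at 9 h, ImpE1, ImpE2 and ImpE3 rose by 0.80 ± 0.19, by 3.51 ± 0.75 and by 2.23 ± 0.37 (adjusted p = 0.00156, 0.000698 and 6.8e-05), so that 3 of 5 were higher and 1 was lower (median 0.80, with 36.9% of genes higher and 34.4% lower). With 20E at 4 h the counts were also 3 and 1 (median 0.61, with 34.2% and 33.1% over all genes), with 1 higher when uncultured replicate 3 or 20E replicate 1 was left out. With insulin at 9 h 1 was higher and 3 lower (median -0.83, with 34.4% and 33.2% over all genes), the higher one being ImpL1, which rose by 2.18 ± 0.25 (adjusted p = 2.14e-06). Without hormone 3 were lower and 1 higher (median -2.55, with 35.5% of genes lower). There ImpE1 fell by 3.38 ± 0.19 (adjusted p = 7.7e-10) and ImpL1 rose by 1.27 ± 0.25 (adjusted p = 0.000358).

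ImpL2, which encodes a secreted protein that binds insulin-like peptides, stood at 93.5, 99.8 and 120 FPKM in fresh discs, at 8.91, 9.57 and 8.26 FPKM without hormone and at 314, 225 and 269 FPKM with insulin at 4 h. Against fresh discs it fell by 3.41 ± 0.26 without hormone (adjusted p = 1.73e-08), fell by 2.01 ± 0.26 with 20E at 4 h and fell by 1.73 ± 0.26 at 9 h (adjusted p = 6.41e-06 and 2.48e-05). Against no hormone it rose by 1.40 ± 0.26 with 20E at 4 h (adjusted p = 0.000796). At 9 h of insulin it was lower than in fresh discs by 0.75 ± 0.26 (adjusted p = 0.0177), a call lost under quantile normalization, with only the groups compared, and without uncultured replicate 3 or insulin replicate 2.

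Over the 18 libraries, the 10 protein-coding genes most like ImpL3 by Pearson's r of log2(FPKM + 1), among 6869, were HLH106 (0.97), ACC (0.97), Inos (0.97), CG6330 (0.96), CG3523 (0.96), CG10365 (0.96), out (0.96), daw (0.96), Cad96Cb (0.96) and CG11576 (0.95). The median r over all these genes was -0.02, and the gene in 11th place had 0.93. The points share libraries and, within a group, culture, and the 2 insulin groups set most of the range, so r is a description. Without the insulin libraries of 4 h, 6 of the 10 were still among the first 10.

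HLH106, now SREBP, encodes the factor that drives fatty acid synthesis genes, and stood at 72.7 to 76.9 FPKM in fresh discs, 173 to 179 with insulin at 4 h and 132 to 139 at 9 h. ACC encodes acetyl-CoA carboxylase, the first enzyme of fatty acid synthesis, with 17.7 to 19.7, 60.2 to 66.2 and 43.3 to 45.9 FPKM. CG3523, now FASN1, encodes fatty acid synthase, with 32.2 to 41.0, 198 to 227 and 126 to 139 FPKM. In these 3 genes insulin replicate 2 did not stand low at 4 h as it did in ImpL3.

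Inos, for the enzyme that makes inositol phosphate, stood at 33.6 to 37.9 FPKM in fresh discs and at 197 to 256 FPKM with insulin at 4 h. daw encodes an Activin-like ligand, and stood at 0.15, 1.09 and 0.194 FPKM in fresh discs, 22.4, 10.5 and 9.65 FPKM with insulin at 4 h and 4.63, 1.28 and 5.91 FPKM at 9 h. All 10 genes had their highest group mean with insulin at 4 h and the next highest with insulin at 9 h, as ImpL3 did. They were chosen by r over these same libraries, so this follows largely from the choice.

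**Figure D4:**
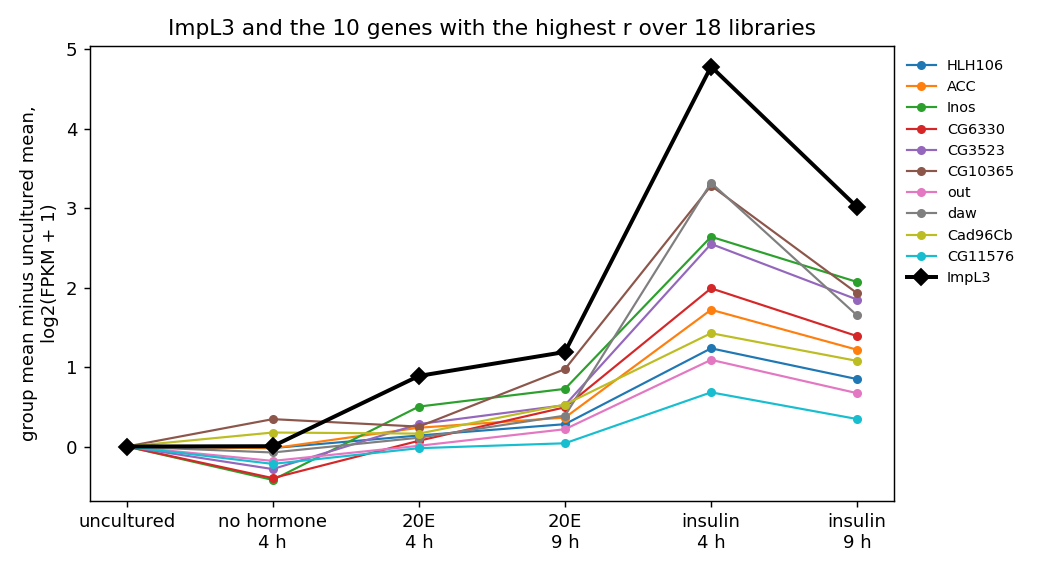
Group mean minus the uncultured mean on the log2(FPKM + 1) scale for ImpL3 (black) and the 10 genes with the highest Pearson's r over 18 libraries (lines join groups for reading only and carry no order). All peak with insulin at 4 h, which follows largely from the choice by r. There ImpL3 is 4.78 above fresh discs and daw, the next highest, 3.32.

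The 5 genes most opposite to ImpL3 were beag (-0.90), CG5180 (-0.89), Map60 (-0.88), Usp7 (-0.88) and Capr (-0.87). They moved within narrow ranges. Capr stood at 174 to 190 FPKM in fresh discs and 150 to 153 FPKM with insulin at 4 h. beag stood at 26.6 to 27.4 and 21.6 to 24.7 FPKM.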

How the data were processed

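Per the labels' protocols, poly(A) RNA was made into strand-specific libraries. Per the submitters' processing notes, cutadapt, TopHat2 and Cufflinks were used with build BDGP5; versions are not given in the sources used here. The authors deposited 1 table of FPKM per gene and library, with no counts. FPKM sums were 829275 to 918429 per library, and whether columns were scaled to each other is not stated. Coordinates were looked up by FlyBase identifier in the Ensembl 115 annotation of BDGP6.54 (14925 of 15602 identifiers matched).

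Tests covered the 8524 genes that reached 1 FPKM in 3 or more of 18 libraries, and were made on log2(FPKM + 1), a scale that understates changes of low genes, with limma 3.58.1 in R 4.3.3: group as the only term, all 18 libraries, a mean-variance trend, two-sided, Benjamini-Hochberg per comparison, and a call at an adjusted p under 0.05. With 3 libraries against 3, an exact permutation test could not go below p = 0.1. The script was tested on simulated data.

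ImpL3, the 11 gene lists, the marker lists and the tests were chosen with earlier results of these data known. Named genes were ImpL3, the 10 most and 5 least like it by Pearson's r (among genes whose highest group mean reached 5 FPKM), the 5 most like it in deviations from group means, and list members. Which members are described was decided after their values were seen. PyK, GlyS, sima and fga were not matched and are not analysed here. A further list member is not reported here. Lists are described by counts and medians, with no set test. Depth was estimated from FPKM steps in single-transcript genes of 1000 nt or more. Of the low values, which were also used for the fit, 84.7% to 89.5% came within 0.1 of whole fragments (20% by chance).

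Alternatives tried: leaving out each library, fitting the compared groups alone, the replicate number as a block, array weights, quantile normalization, median-ratio rescaling, a filter at a mean of 5 FPKM or none, and 0.1 as the pseudocount.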

Additional observations from a re-analysis of the deposited data

How the results depend on the processing

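For ImpL3, 149 of 154 recomputed values kept their direction and their side of the threshold, or, where no test was made, moved by less than the spread between replicates. The 5 others are 20E at 4 h against uncultured, where the call was lost under quantile normalization (0.82, adjusted p = 0.0518) and in 4 of 6 fits that left out 1 library (range of values 0.73 to 1.07, adjusted p 0.0216 to 0.105). With 1 library left out, 20E at 9 h against uncultured ranged from 1.12 to 1.25, insulin at 9 h against uncultured from 2.69 to 3.42, 20E at 9 h against 4 h from 0.12 to 0.46, and 20E against insulin at 9 h from -2.24 to -1.50. The described differences ranged from -0.07 to 0.07 for no hormone against uncultured, 0.73 to 1.07 for 20E against no hormone, 4.49 to 5.17 for insulin at 4 h against no hormone, 4.50 to 5.17 for it against uncultured, -4.29 to -3.61 for 20E against insulin at 4 h, and -2.16 to -1.36 for insulin at 9 h against 4 h.

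The replicate number as a block gave adjusted p-values for ImpL3 of 0.0169, 0.00273, 1.41e-06, 0.495 and 0.000206 in the 5 tested comparisons and changed no call. Of 45 same-numbered pairs of libraries, 8 deviated together with r above 0.1 (median -0.0008, range -0.45 to 0.31). Whether same-numbered libraries shared a culture or batch cannot be read from these values.

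The count of called genes between 4 h and 9 h of 20E was 1951, against 1127 with only these groups and 3606 with array weights; in the other 10 comparisons no alternative moved the count by over 1.5 times. The causes were not tested. Without counts, the precision set by depth is known only through the estimate.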
